A study of Mus musculus with 6 samples.

Results

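The miR-200 family of the mouse comprises miR-200a, miR-200b, miR-200c, miR-141 and miR-429, each with a 3p and a 5p arm named in full as mmu-miR-200a-3p, mmu-miR-200b-3p and so on. All miRNAs on the array whose systematic name is mmu-miR-200a, mmu-miR-200b, mmu-miR-200c, mmu-miR-141 or mmu-miR-429 were taken, which gave 10 of the 1247 miRNAs measured. The RNA came from livers of male C57BL/6 mice, 7 weeks old when treatment began. In the CCl4 group, 3 mice were given carbon tetrachloride, which injures hepatocytes, by the intraperitoneal route at 0.6 mL/kg in corn oil, 2 times a week over 10 weeks, and in the control group 3 mice were given the oil alone in equal amount. CCl4 given in this way is a chemical model of liver fibrosis, and each array holds whole-liver RNA of 1 mouse, so that fewer cells of a type and less RNA per cell cannot be told apart. Nothing in the labels says how the mice were housed or batched, and p-values measure only the spread between these 6 livers.

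The miR-200 family is known from epithelial cells, where it represses the transcription factors Zeb1 and Zeb2 and so keeps E-cadherin expressed. Zeb1 and Zeb2 repress the miRNA genes in turn, and loss of the family accompanies the transition of epithelial cells to a mesenchymal state. In liver, bile duct epithelium is a known site of its expression. Members differ in their seed, the stretch of bases 2 to 8 that pairs with target mRNAs, and in the chromosome they come from.

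The 3p arms fall into 2 seed groups, and their mature sequences are shown because the groups differ in a single seed base while the members of a group come from different chromosomes. All 10 members matched a mature sequence of RefSeq (build GRCm38.p6). The sequences are written 5′ to 3′ with the seed in capitals. The seed AACACUG is shared by miR-200a-3p and miR-141-3p.
miR-200a-3p: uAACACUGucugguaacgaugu
miR-141-3p: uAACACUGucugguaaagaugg
The seed AAUACUG is shared by miR-200b-3p, miR-200c-3p and miR-429-3p.
miR-200b-3p: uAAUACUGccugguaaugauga
miR-200c-3p: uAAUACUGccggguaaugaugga
miR-429-3p: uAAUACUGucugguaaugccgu
No other mature mouse miRNA of the RefSeq table carries either seed. Between miR-200a-3p and miR-200b-3p, counted from the 5′ end, the seed substitution is C4U. The pairs with a common seed on different chromosomes, miR-200a-3p with miR-141-3p and miR-200b-3p with miR-200c-3p, are closer than any pair within the chromosome 4 cluster. miR-141-3p has 20 of 22 bases in common with miR-200a-3p and differs by C17A and U22G. miR-200c-3p has 20 of 22 bases in common with miR-200b-3p and differs by U11G and A22G, besides 1 further base at its 3′ end. Within the chromosome 4 cluster, miR-200a-3p and miR-200b-3p share 18 of 22 bases, as do miR-200b-3p and miR-429-3p and miR-200a-3p and miR-429-3p.

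Mir200b, Mir200a and Mir429 lie next to each other on the minus strand of chromosome 4, with no other gene of the table between them, inside the span of the long noncoding RNA gene Gm13648 and with Ttll10 and 9430015G10Rik as the nearest protein-coding genes on either side. Mir200c and Mir141 are neighbours on the minus strand of chromosome 6, between Phb2 and Ptpn6. The 3 hairpins of chromosome 4 are shown with the arm that was detected in capitals, because only this arm gave a signal.
Mir200b: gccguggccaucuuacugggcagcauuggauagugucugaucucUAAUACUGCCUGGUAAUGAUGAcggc
Mir200a: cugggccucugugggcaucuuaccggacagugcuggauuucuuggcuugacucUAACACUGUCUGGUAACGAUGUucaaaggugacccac
Mir429: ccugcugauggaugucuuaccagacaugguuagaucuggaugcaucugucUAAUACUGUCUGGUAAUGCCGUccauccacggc

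Each array detected 186 to 193 of the 1247 miRNAs in the corn oil group and 227 to 334 in the CCl4 group, and no spot was saturated. CCl4 replicate 3 stood apart from the other arrays, with 334 detected miRNAs, a summed detected signal of 316413 against 167865 to 177351 on the other 5 arrays, and a signal of 2158 for the hepatocyte miRNA miR-122-5p against 13110 to 18345. The changes of the members, and those marker changes that this array moved most, are therefore given with and without it. The CCl4 arrays lay in row 1 of the slide and the corn oil arrays in row 2, so slide row and treatment cannot be told apart.

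Detection of the family was limited to the 3p arms of chromosome 4. A miRNA counts as detected where the scanner software set its detection flag, and each member is read by 40 spots. miR-200a-3p and miR-200b-3p were detected on all 6 arrays, and miR-429-3p was detected on 3, corn oil replicate 3 and CCl4 replicates 1 and 2. miR-200c-3p and miR-141-3p were detected on 0 of 6 arrays, as were all 5 of the 5p arms. In seed terms, 1 of 2 members with AACACUG and 2 of 3 members with AAUACUG were detected on at least 1 array, so that both seeds were represented, each from chromosome 4.

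**Figure D1:**
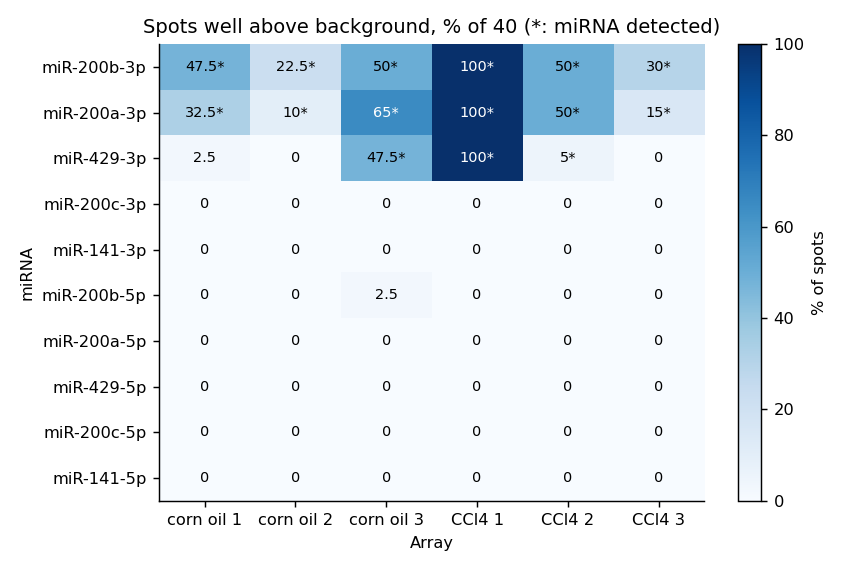
Share of the 40 spots of each miRNA that lay well above background (percent, number and color) for the 10 members (rows) on the 6 arrays (columns), with an asterisk where the miRNA was detected. Only the upper 3 rows, the 3p arms of chromosome 4, hold asterisks, and all 3 reach 100% on CCl4 replicate 1.

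The 7 members that were never detected are read by 22 probes, which gave 132 probe signals over the 6 arrays. Of these 132 values, 102 were below 0 after background subtraction, the median was -0.269 and 1 of 1680 spots was well above background. The highest came from 1 of the 2 probes of miR-141-3p, at 1.22, 0.593 and 0.976 with corn oil and 1.70, 2.64 and 2.88 with CCl4. These unnormalized values did not overlap between the groups. On that scale the median log2 change of the 166 miRNAs detected on all arrays was 0.99. After normalization, and so not on that scale, the groups did not overlap for 39.2% of those 166. No spot of miR-141-3p was well above background on any array, and the array with the highest value was not the one that was highest for the chromosome 4 members. The probe signals of miR-200c-3p lay between -0.982 and 1.04. A level too low for this array cannot be told from absence.

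The signals of the detected members varied widely from array to array in both groups. The total signal of miR-200b-3p, an intensity with background subtracted and without normalization between arrays, stood at 7.31 for corn oil replicate 1, 5.64 for replicate 2 and 17.6 for replicate 3, and at 60.01, 11.7 and 9.46 for CCl4 replicates 1, 2 and 3. For miR-200a-3p it stood at 6.32, 4.76 and 19.3 with corn oil and at 48.1, 9.32 and 7.39 with CCl4. For both miRNAs CCl4 replicate 1 was highest and corn oil replicate 3 second, and the groups overlapped. The software's error of the miR-200a-3p total, which covers the spots of 1 array and not the steps from liver to array, was 1.33 on corn oil replicate 1, 2.29 on corn oil replicate 3 and 4.19 on CCl4 replicate 1. miR-429-3p had totals of 12.0 on corn oil replicate 3, 31.1 on CCl4 replicate 1 and 4.01 on CCl4 replicate 2, and the same arrays led.

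The total signal counts only the probes of a miRNA that the software called detected, so the number of probes behind it changed between arrays. The sum over all probes of a miRNA, detected or not, removes this step. The sum for miR-429-3p came to 4.64, 4.31 and 12.0 with corn oil and to 31.1, 7.88 and 7.45 with CCl4. It was close on CCl4 replicates 2 and 3, although the miRNA was flagged as detected on the former alone. For miR-200b-3p the sums were 8.39, 6.31 and 20.7 with corn oil, and for miR-200a-3p they were 8.15, 6.18 and 19.3, so that replicate 3 lay above replicates 1 and 2 for all 3 miRNAs in mice that received no CCl4. No fold is given between these arrays, since few spots were well above background on corn oil replicate 2, and with 1 array per liver the variation among mice and among arrays cannot be told apart.

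**Figure D2:**
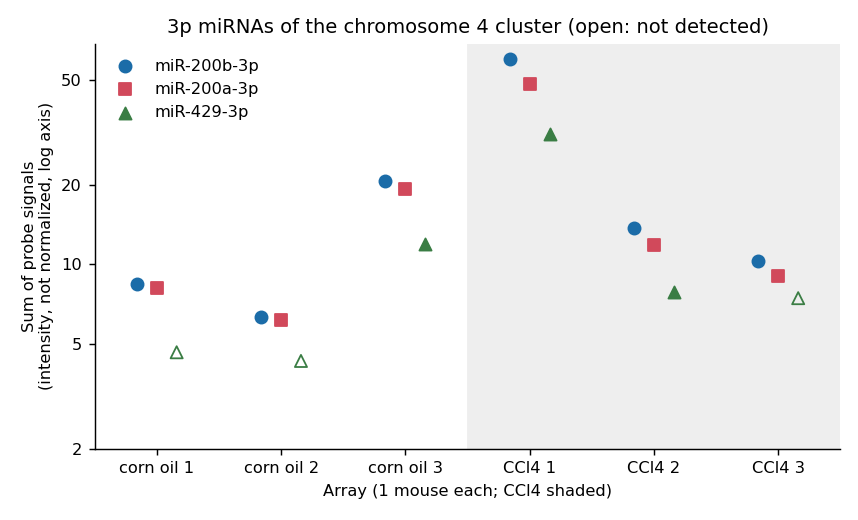
Sum of the probe signals (intensity, not normalized, log axis) of miR-200b-3p, miR-200a-3p and miR-429-3p on each array, 1 mouse each, with the CCl4 arrays shaded and open symbols where the miRNA was not detected. CCl4 replicate 1 is highest for each miRNA (60.01, 48.1 and 31.1) and corn oil replicate 3 second, above CCl4 replicates 2 and 3.

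The same order was seen probe by probe. Each of the 3 miRNAs is read by 2 probes with 20 spots each, and all 6 probes were highest on CCl4 replicate 1 and second on corn oil replicate 3. The probe signals lay between 9.66 and 50.3 on CCl4 replicate 1 and between 3.09 and 17.6 on corn oil replicate 3. On corn oil replicate 2, 4 of the 6 probes had 0% of their spots well above background. For the brighter probe of miR-200b-3p, the processed signal of the 20 spots had a median of 178 (157 to 232) on CCl4 replicate 1, 61.5 (52.6 to 73.2) on corn oil replicate 3 and 19.8 (11.9 to 27.6) on corn oil replicate 2. The spots are technical repeats within an array and carry no spread between livers. On CCl4 replicate 3 the median was 24.0 and on corn oil replicate 1 it was 26.0, while the signals the software gave for this probe were 9.46 and 7.31, so the order of these arrays depended on the signal used.

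**Figure D3:**
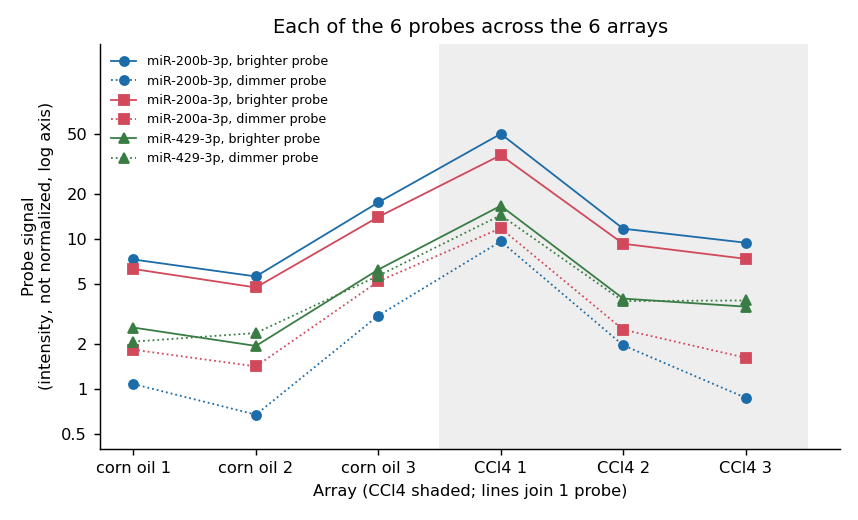
Signal of each of the 6 probes (intensity, not normalized, log axis) on the 6 arrays, with solid lines for the brighter and dotted lines for the dimmer probe of a miRNA and the CCl4 arrays shaded. All 6 lines peak on CCl4 replicate 1, at 9.66 to 50.3, and have their second highest point on corn oil replicate 3, at 3.09 to 17.6.

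The corn oil and CCl4 livers overlapped for miR-200a-3p and miR-200b-3p, and neither passed the test for a difference. The comparison used limma on quantile-normalized log2 total signals and covered the 166 miRNAs found by the software on every array. Calls needed a change of more than 2-fold together with a p, adjusted after Benjamini and Hochberg, below 0.05. Of the 166 miRNAs, 20 or 12% were called, and of the 2 members tested, 0. Their unadjusted limma p was 0.95 and 0.91. The normalized log2 signals of miR-200a-3p were 3.11, 2.88 and 4.81 with corn oil and 5.29, 3.06 and 2.26 with CCl4. Its mean was 3.603 ± 1.05 (SD, n = 3) with corn oil and 3.54 ± 1.57 with CCl4, a log2 change of -0.064 (standard error 0.94, 95% interval -2.44 to 2.31, limma adjusted p = 0.98). The highest values of both groups, on CCl4 replicate 1 and corn oil replicate 3, lay above all others, and the interval is wide enough to hold both a rise and a fall of over 2-fold. For miR-200b-3p the normalized signals were 3.39, 3.30 and 4.75 with corn oil and 5.54, 3.59 and 2.62 with CCl4. The change was 0.11 (standard error 0.85, interval -2.02 to 2.24, adjusted p = 0.94), from 3.81 ± 0.81 to 3.92 ± 1.49. At most 50% of the spots of miR-200b-3p were well above background on every corn oil array, so its level there is only bounded, and its changes are differences between the signals as measured. The bound on the fold came to under 1 and is not given as a fold.

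The sign of both changes depended on single livers. Without CCl4 replicate 1 the log2 change was -0.92 for miR-200a-3p (limma adjusted p = 0.44) and -0.70 for miR-200b-3p (adjusted p = 0.47). Without CCl4 replicate 3, the array that stood apart, it was 0.56 (adjusted p = 0.66) and 0.72 (adjusted p = 0.51), and without corn oil replicate 3 it was 0.54 and 0.59. In none of these fits was either member called. Leaving out CCl4 replicate 1 or 3 or corn oil replicate 3 thus moved the 2 changes together. The groups did not overlap for 65 of the 166 miRNAs, 39.2%, and for 0 of the 2 members. Without normalization between arrays, the median change of the 166 miRNAs was 0.99 rather than -0.14, and the members, at 0.84 for miR-200a-3p and 1.07 for miR-200b-3p, lay close to that median. With the sums of all probes and no normalization, which also covers miR-429-3p, the change was 0.99 for miR-200b-3p, 0.80 for miR-200a-3p and 0.98 for miR-429-3p, with exact permutation p = 0.4, 0.5 and 0.3 (two-sided, n = 3 livers per group). The smallest p that 3 livers against 3 can give is 0.1.

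**Figure D4:**
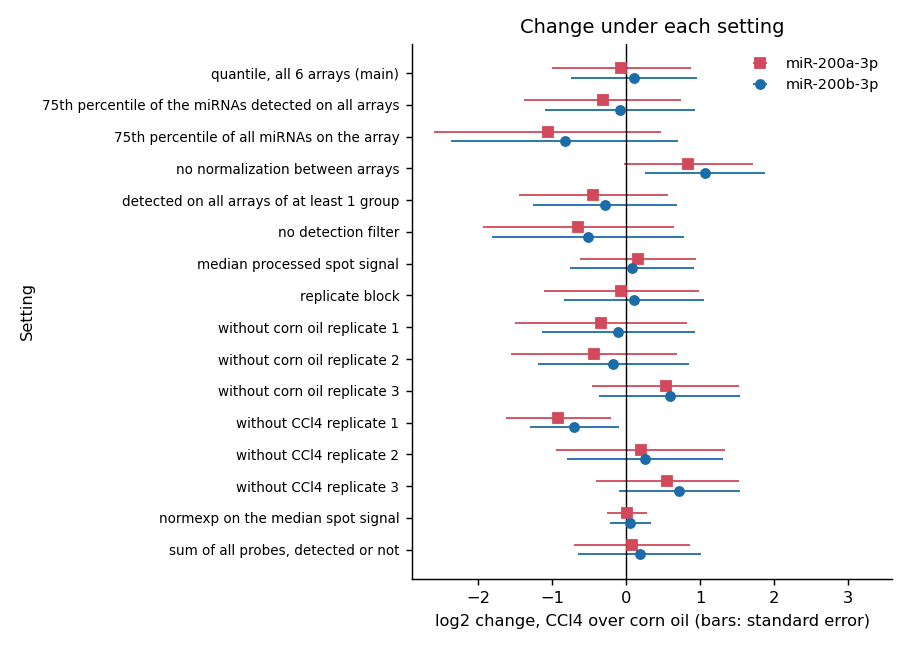
log2 change, CCl4 over corn oil, of miR-200a-3p (squares) and miR-200b-3p (circles) under each setting, with bars of 1 standard error and a vertical line at no change. The points lie on both sides of 0, from -1.06 to 1.07, and shift together when 1 array is left out.

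The 2 seeds were set against each other by the within-array log2 difference between miR-200a-3p and miR-200b-3p, which asks whether they moved apart with CCl4. After quantile normalization the differences were -0.28, -0.42 and 0.066 with corn oil and -0.25, -0.53 and -0.35 with CCl4, and the groups overlapped. The mean difference changed by -0.17 with CCl4 (exact permutation p = 0.5). Without normalization the change was -0.23, and the values, -0.21, -0.24 and 0.13 with corn oil and -0.32, -0.33 and -0.36 with CCl4, did not overlap, with the smallest p the design allows (exact p = 0.1). With the sum of all probes it was -0.19 (exact permutation p = 0.1). The total signal of miR-200a-3p on corn oil replicate 3 included its second probe and that of miR-200b-3p did not.

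The 3 detected members varied in step. On the log2 scale of the probe sums, without scaling, Pearson's r over the 6 livers was 0.998 for miR-200b-3p with miR-200a-3p, 0.991 for miR-200b-3p with miR-429-3p and 0.986 for miR-200a-3p with miR-429-3p. Spearman's rho was 1 for each pair. Each r and each rho had an exact permutation p of 0.0028, the smallest that 6 arrays can give. It stayed at 0.0028 after adjustment over 6 relations, the 3 pairs without and with scaling to the 75th percentile. Values of r and rho were adjusted separately. With the 2 arrays farthest from the median left out, r was 0.989, 0.953 and 0.872. Scaling the arrays to the 75th percentile left r at 0.994 or above. Within each group, which has too few livers for a correlation, the 3 miRNAs kept the same order, with replicates 3, 1 and 2 from high to low for corn oil and 1, 2 and 3 for CCl4. The 3 miRNAs share a gene cluster, the arrays and much of their sequence, and whether a probe for one also reads another was not tested.

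Few other miRNAs varied so much among livers of the same treatment. The SD of miR-200a-3p among the corn oil livers, 1.05 on the normalized log2 scale, ranked 2 of 166, and that of miR-200b-3p, 0.81, ranked 4. The median SD of all miRNAs tested was 0.099, and that of the dimmest 41 was 0.16. Among the CCl4 livers the SDs of 1.57 and 1.49 ranked 6 and 8, against a median of 0.48. Without CCl4 replicate 3 they were 1.57 and 1.38, ranks 1 and 3, against a median of 0.16. The SDs with corn oil rest on replicate 3, since the normalized values of replicates 1 and 2 were 3.11 and 2.88 for miR-200a-3p and 3.39 and 3.30 for miR-200b-3p. The ranked SDs are of total signals, and the number of probes behind these changed between arrays. For the unnormalized log2 sums of all probes, the corn oil SDs were 0.86 for miR-200a-3p and 0.89 for miR-200b-3p. With CCl4 the SDs of these sums were 1.30 and 1.36, and they were not ranked against other miRNAs. By mean level, miR-200a-3p and miR-200b-3p were 23 and 31 from the lowest of the 166.

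**Figure D5:**
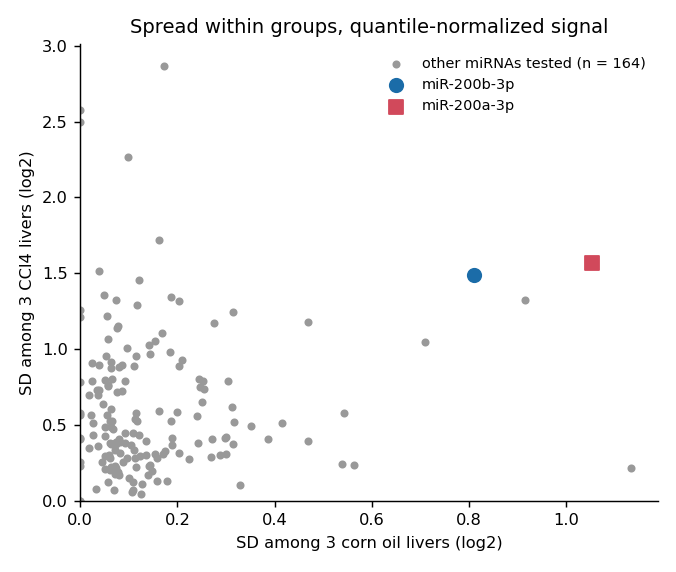
SD among the 3 corn oil livers (x axis) and among the 3 CCl4 livers (y axis) of the quantile-normalized log2 signal, 1 point for each of the 166 miRNAs tested. miR-200a-3p (1.05 and 1.57) and miR-200b-3p (0.81 and 1.49) lie apart from most miRNAs, since they varied within both groups.

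The miRNA most like miR-200a-3p over the 6 arrays was miR-200b-3p, with Pearson's r of 0.990 as a description on the normalized log2 scale. After it came miR-195a-5p (r = 0.71), a member of the miR-15 and miR-16 seed family, and the leukocyte miRNA miR-142-3p (r = 0.68). For miR-200b-3p, miR-142-3p (r = 0.77) and miR-3473b (r = 0.74) followed miR-200a-3p. The points share the arrays and their 2 groups. On the unnormalized scale miR-142-3p was at 36.8, 33.7 and 38.0 with corn oil and at 174, 121 and 150 with CCl4, so that corn oil replicate 3 lay close to the other corn oil arrays, unlike in the miR-200 family.

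Other miRNAs known from epithelia were read on the same arrays. Of 7 listed, miR-203-3p, known from stratified epithelium, and miR-31-5p were detected on all arrays, and their correlations with miR-200a-3p over the 6 arrays were -0.050 and 0.39. Of these 2 miRNAs 1 was called, lower with CCl4, against 4.82% of all miRNAs tested. This was miR-203-3p, with a log2 change of -1.19 (standard error 0.16, limma adjusted p = 0.011). It was -1.15 and still called without CCl4 replicate 3, but the call was lost without CCl4 replicate 1 (adjusted p = 0.054), without corn oil replicate 1, 2 or 3 (0.075, 0.064 and 0.062) and with the replicate block (0.088). The call was also lost without a detection filter (0.39) and with scaling to the 75th percentile of all miRNAs (0.86). With normexp, and with over 50% of spots well above background as the filter, the change was under the fold limit, at -0.49 and -0.83. Without normalization it was -0.013 (adjusted p = 0.98), against the median of 0.99, and the signals were 25.2, 21.0 and 26.0 with corn oil and 17.4, 19.2 and 39.98 with CCl4. The change of miR-31-5p was -0.92 (adjusted p = 0.34), -0.26 without CCl4 replicate 3 and 0.41 without normalization. miR-96-5p, of the miR-183 cluster, was detected on 4 arrays, at 4.35 on corn oil replicate 3 and 12.2, 4.63 and 16.9 on the CCl4 arrays. miR-375-3p was detected on CCl4 replicate 3 alone, at 769, and miR-182-5p, miR-183-5p and miR-205-5p were not detected.

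Markers of other liver cells were read in the same livers, as miRNA signals and not as cell fractions. The summed detected signal of 6 mesenchymal miRNAs, which mark stellate cells and fibroblasts, was 82.0, 67.2 and 109 with corn oil and 643, 255 and 1236 with CCl4. This sum is not normalized between arrays. Within the corn oil group it was highest on replicate 3, as were the miR-200 members. Within the CCl4 group it was highest on replicate 3, where the unnormalized miR-200 signals were lowest. After normalization, miR-199a-3p, miR-199a-5p and miR-199b-5p were highest within the CCl4 group on replicate 1 (8.11, 6.05 and 6.53), as were miR-200a-3p and miR-200b-3p. There miR-143-3p was highest on replicate 3 (5.77). Within the corn oil group all 4 were highest on replicate 3. Of the 4 mesenchymal miRNAs tested 2 rose, against 7.23% of all miRNAs called higher. These were miR-199a-5p (1.34, limma adjusted p = 0.032) and miR-199b-5p (2.28, adjusted p = 0.016), and without CCl4 replicate 3 they were called at 1.35 and 2.08. Without CCl4 replicate 1 neither was called (adjusted p = 0.068 and 0.061), nor without corn oil replicate 1 (0.12 and 0.078), 2 (0.14 and 0.082) or 3 (0.082 and 0.074). With the replicate block the call of miR-199a-5p was lost (adjusted p = 0.09), as it was with the median spot signal (0.092) and the sum of all probes (0.051). Neither miRNA was called with normexp (0.13 and 0.055) or without a detection filter (0.39 and 0.27). With scaling to the 75th percentile of all miRNAs both were at 0.86. miR-199a-3p, of the same hairpin as miR-199a-5p, changed by 1.28 (adjusted p = 0.059) and the smooth muscle miRNA miR-143-3p by 0.68 (adjusted p = 0.18), or 0.41 without CCl4 replicate 3. The median change of the 4 was 1.31, against -0.14 over all 166. miR-214-3p was detected on 4 arrays, at 5.21 on corn oil replicate 3 and 43.4, 17.4 and 59.7 on the CCl4 arrays. miR-145a-5p was detected on 2, at 10.8 and 46.8 on CCl4 replicates 1 and 3.

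The sum of 5 immune miRNAs was 74.7, 63.8 and 73.8 with corn oil and 445, 319 and 395 with CCl4, without normalization. After normalization the groups overlapped for both of the 2 tested. Of these, miR-142-3p changed by 0.52 and the myeloid miRNA miR-223-3p by 1.18 (limma adjusted p = 0.43 and 0.18), and neither was called. Without CCl4 replicate 3, miR-223-3p was called, at 1.75 (adjusted p = 0.0018), and miR-142-3p was at 0.97 (adjusted p = 0.019), under the limit on the fold. Without normalization both were called, at 2.03 and 2.54 for miR-142-3p and miR-223-3p against the median of 0.99. miR-142-5p, miR-150-5p and miR-155-5p were detected on 4, 3 and 1 arrays.

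The 4 hepatocyte miRNAs summed to 20404, 18908 and 20803 with corn oil and 14923, 17695 and 2750 with CCl4. None of the 4 was called by limma, and the lowest unadjusted limma p was 0.092, for miR-148a-3p. Their median change was -1.73, with -1.49 for miR-122-5p, -1.98 for miR-192-5p, -1.97 for miR-194-5p and -1.26 for miR-148a-3p. The groups did not overlap for 3 of the 4, against 39.2% of all miRNAs tested. These changes depended strongly on CCl4 replicate 3. Without it those of miR-192-5p, miR-194-5p and miR-148a-3p were -0.48, -0.71 and -0.57 (limma adjusted p = 0.023, 0.12 and 0.046), under the limit on the fold. That of miR-122-5p was then 0 within rounding, because quantile normalization gave it the same value, 13.9, on the other arrays. Its unnormalized signals were 17855, 16613 and 18345 with corn oil and 13110, 15544 and 2158 with CCl4. The red cell miRNAs miR-144-3p and miR-451a changed by -0.50 and -0.60 and were not called. Within the corn oil group, replicate 3 was highest in the unnormalized mesenchymal, hepatocyte and other epithelial sums, the last at 66.6, 60.7 and 72.2. Replicate 1 was highest there in the immune sum, and replicate 2 in the red cell sum, at 466, 754 and 700. Within the CCl4 group, replicate 1 was highest in the immune sum alone. The miR-200 signals were highest on CCl4 replicate 1 and corn oil replicate 3. After normalization, the mesenchymal miR-199a-3p, miR-199a-5p and miR-199b-5p and the immune miR-142-3p were highest within their groups on these arrays. In the CCl4 group miR-143-3p and miR-223-3p were not. The part of cell composition in the variation of the miR-200 family was not tested.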

How the data were processed

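Total liver RNA of 3 CCl4-treated and 3 corn oil-treated mice, 100 ng each, was labeled with Cy3 and hybridized to 1-color miRNA arrays. The authors extracted the deposited signals with Agilent Feature Extraction 11.0.1.1; they are intensities on a linear scale with background subtracted and no normalization between arrays, and the total of an undetected miRNA is 0.1. The authors also deposited quantile-normalized intensities of 111 miRNAs, 0 of them members, which entered no comparison and were only matched to the scanner arrays by rank. In this match the columns named corn oil 1, 2 and 3 match scanner arrays 2, 3 and 1, and the numbers used here follow the scanner files. Members and lists were chosen with earlier results of these data known. The 166 miRNAs detected on every array entered a limma 3.58.1 fit (R 4.3.3) of quantile-normalized log2 total signals with no replicate block. The script of this fit was tested on simulated data. Calls used the Benjamini-Hochberg adjustment. Named are all members, list members called or detected on all arrays, and the 3 miRNAs most correlated with a member; other names were chosen after their values were seen. A bound is given where no array of a group had over 50% of the spots well above background. It sets the mean of the other group against the higher of the own signal and the lowest signal well above background. Tables, exact tests and plots used matplotlib 3.10.9, scipy 1.17.1, pandas 2.3.3 and numpy 2.4.6 under Python 3.11.15. Alternatives covered normalization, detection filter, signal, replicate block and each array left out. Sequences and gene order are from RefSeq (GRCm38.p6). The scanner files name mm9, so no coordinates are given. Probe sequences were not used here, so reading of 1 family member by the probes of another was not tested. Precision is limited by the 3 arrays per group.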

Additional observations from a re-analysis of the deposited data

Results flagged for a closer look

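miR-429-3p was outside the fit because it was not detected on all arrays, yet its total signal of 31.1 on CCl4 replicate 1 exceeded the highest corn oil value, 12.0 on corn oil replicate 3, and all of its 40 spots were well above background there. On CCl4 replicate 2 its total was 4.01, under that corn oil value, and on CCl4 replicate 3 it was not detected.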

How the results depend on the processing

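Neither member was called under any setting that could be fitted, but their direction was not stable. The change of miR-200a-3p, -0.064 in the reported fit, was 0.84 without normalization between arrays, 0.16 with the median processed spot signal, 0.0097 with normexp on the median spot signal and 0.075 with the sum of all probes, and -0.92 to 0.56 with 1 array left out at a time. That of miR-200b-3p, 0.11, was -0.087 with scaling to the 75th percentile of the miRNAs detected on all arrays, -0.83 to that of all miRNAs on the array, -0.28 with detection on all arrays of 1 group as the filter and -0.52 without a filter, and -0.70 to 0.72 with 1 array left out. The cause of these changes of direction was not tested. The difference between the seeds kept its sign in 8 alternatives, at -0.27 to -0.032 with 1 array left out. Of the 20 called miRNAs the count was 32 with detection on all arrays of 1 group, 6 without a filter, 7 with over 50% of spots well above background on all arrays, 4 with normexp, 0 with the 75th percentile of all miRNAs (4 by limma at an unadjusted p under 0.05) and 5 to 28 with 1 array left out. Without corn oil replicate 1 it was 7, without replicate 2 it was 5, without replicate 3 it was 6, and without CCl4 replicate 1 it was 5. Without normalization 18 were higher and 0 lower, against 12 and 8. This percentile was 0.1, the value of an undetected miRNA, on 5 arrays and 5.18 on CCl4 replicate 3, so it scaled that array alone. The members were not among the 113 miRNAs with over 50% of spots well above background on all arrays.

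With the replicate block 6 miRNAs were called, and the changes of the members were the same, -0.064 and 0.11 (limma adjusted p = 0.98 and 0.95). The labels do not say whether livers of the same replicate number were paired. Deviations of same-numbered livers from their group means correlated at -0.18, 0.11 and 0.029 over 166 miRNAs. Those of differently numbered livers correlated at -0.27 to 0.24. Since the corn oil numbers differ between the scanner files and the normalized columns, these values cannot settle whether livers were paired. Counting a member only with over 50% of its spots well above background left 0, 0 and 1 members on corn oil replicates 1, 2 and 3, against 2, 2 and 3 detected, and 3, 0 and 0 on the CCl4 arrays, against 3, 3 and 2. Normexp, the sum of all probes and the SDs without CCl4 replicate 3 were chosen after seeing the data. Normexp on the mean spot signal was not run, because the columns used hold the median alone, and a slide block could not be fitted, because all arrays lay on 1 slide.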
